A study of Homo sapiens with 6 samples.

Results

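The 10 genes described here, IGF2, H19, DLK1, MEG3, PEG3, PEG10, CDKN1C, MEST, GRB10 and SNRPN, are imprinted genes with known activity in embryonic mesoderm. They were found in the table of raw counts by the Ensembl identifiers that GENCODE 29 gives for these symbols, and each matched 1 of the 60107 rows. The cells were H9, an established line of human embryonic stem cells, on day 9 of a protocol of 10 days that steers them toward nephron progenitor cells, which give rise to the nephrons of the kidney. From day 0 the medium either held glutamine (complete medium, 3 libraries) or lacked it (3 libraries), and mRNA was sequenced as single reads of 50 nt from stranded libraries. All 6 libraries come from 1 cell line, so they share 1 genome. The labels do not say that replicates were separate cultures, so p-values measure the spread between these libraries, which may be in part technical.

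An imprinted gene is transcribed mainly from the copy inherited from 1 parent, and the choice is kept by DNA methylation laid down in the egg or the sperm at control regions that often govern several neighbouring genes. IGF2, DLK1, PEG3, PEG10, MEST and SNRPN are known as genes of the paternal copy, H19, MEG3 and CDKN1C as genes of the maternal copy, and GRB10 as a gene whose active copy depends on the tissue. Many paternally expressed genes promote fetal and placental growth and several maternally expressed ones restrain it. The counts do not separate the parental copies, so only total RNA per gene was measured.

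The libraries held 78220507 to 84746566 counts. Replicate 1 with glutamine stood apart from its group. Across genes, its log2 CPM correlated at r = 0.9758 and 0.9762 with replicates 2 and 3 with glutamine, but at 0.9908 to 0.9927 with the 3 libraries without glutamine. Fold changes of the 10 genes and counts over lists are therefore given with and without that library. It was left out because of its values in these same data, which by itself tends to widen group differences and narrow the spread. All p-values, calls and ratios without it are therefore descriptive only. Of 16 nephron progenitor markers, 16 were tested, and their summed CPM (counts divided by the scaled library total and brought to a common total) was 1760 in replicate 1 with glutamine, 1170 and 1100 in replicates 2 and 3, and 1670 to 2210 without glutamine. PAX8 and WT1, transcription factors of the early kidney, were present in every library, whereas SIX2, which marks self-renewing nephron progenitors, had 6.57 to 34.8 CPM. The 7 pluripotency markers summed to 359 to 466 CPM with glutamine and 358 to 432 without, most of it LIN28A (125 to 322 CPM) and DPPA4 (113 to 269 CPM) and not NANOG (at most 0.0128 CPM) or POU5F1 (at most 0.151 CPM). Somite markers summed to 178 to 285 CPM with glutamine and 174 to 258 without, and lateral plate, stromal and endothelial markers to 89.6 to 117 and 72.4 to 109. These sums hide genes that moved in opposite directions. By fitted fold change, 2 pluripotency markers were higher and 2 lower without glutamine. The somite list had 3 higher and 5 lower, and the lateral plate list 3 and 4. PAX3 had 20.8, 115 and 118 CPM in replicates 1 to 3 with glutamine and 22.4, 12.4 and 13.4 without. UNCX had 14.1, 18.6 and 14.8 with and 34.3, 26.9 and 16.8 without. Neural markers summed to at most 6.16 CPM, trophoblast markers to at most 6.95 and endoderm markers to at most 2.52, with SOX10 at 0 in every library. The part of such differences in the results below was not tested, and in bulk RNA fewer expressing cells and less RNA per cell cannot be told apart.

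H19 had the highest RNA level of the 10 genes, with 1.28 to 2.02 times the IGF2 count in each library. The margin was wider per kilobase. The length used there holds every annotated exon base, 2897 for H19 and 6979 for IGF2, whether or not it was transcribed in these cells. Per kilobase of exon, H19 held 2150 to 2670 CPM over the 6 libraries, IGF2 442 to 856, PEG10 247 to 417, MEST 124 to 171 and CDKN1C 56.2 to 84.2, and none of these neighbouring ranges overlapped. DLK1 (2.82 to 32.3), SNRPN (8.16 to 11.6) and GRB10 (6.68 to 11.1) overlapped with each other. PEG3 lay at 0.0353 to 0.0682 and MEG3 at 0.000549 to 0.00478 CPM per kilobase, the lowest of the 10. By raw count H19 ranked 1 among all genes in every library, IGF2 ranked 2 to 6 and PEG10 8 to 24. Together the 10 genes took 1.28% to 1.66% of all counts. The plot of CPM by library shows each value.

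**Figure D1:**
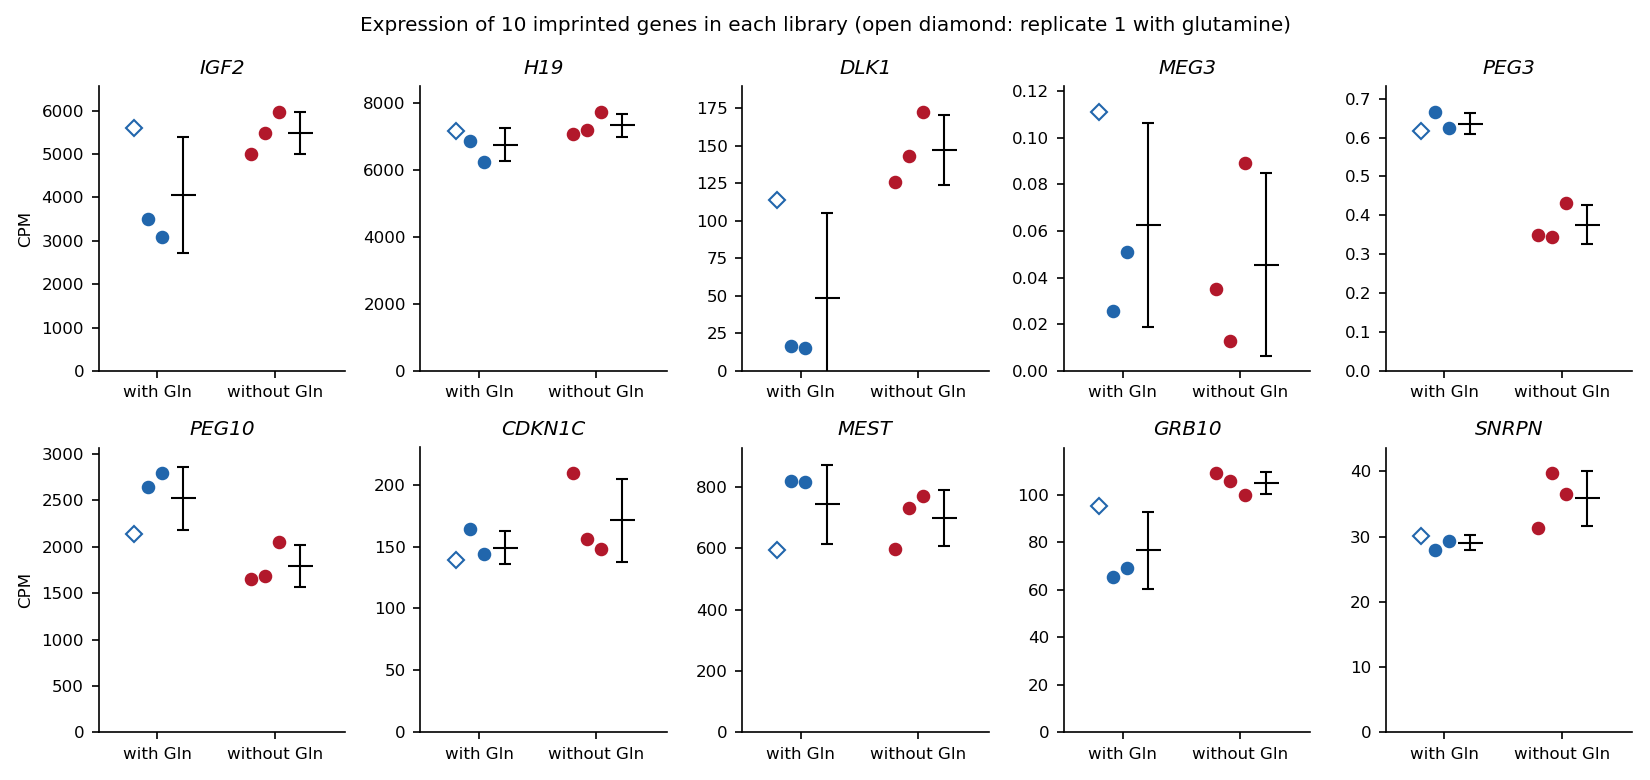
Expression of the 10 genes in CPM (linear axis from 0, a separate scale per gene) in the 3 libraries with and the 3 without glutamine (Gln), with the mean and SD of each group in black and replicate 1 with glutamine as an open diamond. For IGF2, DLK1 and GRB10 the diamond lies near the libraries without glutamine, whereas for PEG3 it lies with its own group; the lower end of the DLK1 bar with glutamine falls below 0 and is not drawn.

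With all 6 libraries, none of the 9 genes tested passed an adjusted p of 0.05 in edgeR's quasi-likelihood test with Benjamini-Hochberg adjustment over 22613 genes, where 0.00442% of all genes did; MEG3 had too few counts to be tested. PEG3, PEG10, GRB10 and SNRPN, 4 of the 9, had an unadjusted p below 0.05, as did 29.7% of all genes. DESeq2, run as an alternative, called PEG10 and GRB10, 2 of the 10, and 14% of the genes to which it gave an adjusted p. The 3 libraries without glutamine all lay above the 3 with it for DLK1, GRB10 and SNRPN (17.3% of all genes), and all below for PEG3 and PEG10 (16.9%). Without replicate 1 with glutamine, IGF2, DLK1, GRB10 and SNRPN were called higher without glutamine, against 22.3% of 23164 genes, and PEG3 and PEG10 lower, against 19% of genes. H19, CDKN1C and MEST passed in neither fit.

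IGF2 and H19 lie side by side on chromosome 11 (GRCh38), IGF2 at chr11:2129112-2149603 and H19 at chr11:1995176-2001470, both on the minus strand with starts 148 kb apart. IGF2 encodes insulin-like growth factor 2, a main fetal growth factor, and H19 is a long non-coding RNA. A shared control region between them lets the paternal copy express IGF2 and the maternal copy H19. The RefSeq sequence (GRCh38.p14) from 250 bases before to 50 bases after the H19 start, chr11:2001217-2001516 on the minus strand, is shown because its RNA was the most abundant of the 10.

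H19 promoter: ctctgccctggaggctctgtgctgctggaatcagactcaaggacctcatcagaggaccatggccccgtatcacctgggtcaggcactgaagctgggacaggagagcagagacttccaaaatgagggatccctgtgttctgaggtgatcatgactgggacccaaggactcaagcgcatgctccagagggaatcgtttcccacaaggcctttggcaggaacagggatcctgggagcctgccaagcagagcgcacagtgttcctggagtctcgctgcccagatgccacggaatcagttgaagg

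It holds 6 CpG dinucleotides, against a median of 14 over all promoters of that length. H19 also carries a miRNA in an exon, and the mature sequences are shown because the H19 transcript is their precursor; the capitals mark the seed, bases 2 to 8. The miRNAs themselves were not measured in these mRNA libraries.

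hsa-miR-675-5p: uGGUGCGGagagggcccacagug
hsa-miR-675-3p: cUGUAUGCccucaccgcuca

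With glutamine, IGF2 had 5590, 3490 and 3090 CPM (replicates 1 to 3, the order used throughout), and without it 4990, 5490 and 5970 CPM. Replicates 2 and 3 with glutamine were the lowest libraries, and replicate 1 lay inside the range without glutamine, so the groups overlapped. The means were 4060 ± 1350 and 5480 ± 492 CPM (SD, n = 3 each). The fitted log2 fold change (without against with glutamine, throughout) came to 0.44, with an SE of 0.22 (edgeR adjusted p = 0.223), and to 0.74 (SE 0.09, edgeR adjusted p = 0.000227) without replicate 1 with glutamine. IGF2 shares 26.3% of its exon bases with same-strand genes, AC132217.1 and INS-IGF2, which held at most 1 count, and 4.77% with IGF2-AS on the other strand, which held 3904 to 4361 counts.

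H19 had 7180, 6870 and 6230 CPM with glutamine and 7080, 7190 and 7740 CPM without, overlapping groups with means of 6760 ± 484 and 7340 ± 351 (SD, n = 3 each). With all 6 libraries the log2 fold change was 0.12, with an SE of 0.09 (edgeR adjusted p = 0.391), and 0.17 (edgeR adjusted p = 0.119) without replicate 1 with glutamine. The ratio of H19 to IGF2 counts, which needs no scaling between libraries, was 1.28, 1.97 and 2.02 with glutamine and 1.42, 1.31 and 1.3 without. On the log2 scale, with a pseudocount of 1, it averaged 0.78 ± 0.37 and 0.42 ± 0.07 (SD, n = 3 each), a difference of -0.36 (two-sided exact permutation p = 0.4, the smallest possible being 0.1). Replicate 1 with glutamine had the lowest ratio of all 6 libraries, and replicates 2 and 3 the highest. Without replicate 1 with glutamine the difference was -0.57 (two-sided exact permutation p = 0.1, the smallest that 2 against 3 libraries allow).

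DLK1 had the largest difference of the 9 genes tested and, with all 6 libraries, the largest spread. Its pooled SD of log2 CPM was 0.20 without replicate 1 with glutamine, and that of CDKN1C, 0.23, was larger. DLK1 encodes a membrane protein related to Notch ligands that is known for holding precursor cells in an undifferentiated state, and lies at chr14:100725705-100738224 on the plus strand. It had 114, 16.7 and 15.0 CPM with glutamine and 126, 143 and 172 CPM without. Replicate 1 with glutamine stood just below the libraries without glutamine, and replicates 2 and 3 far below, so the groups did not overlap. The means were 48.5 ± 56.5 and 147 ± 23.2 CPM (SD, n = 3 each), 3.03-fold apart. Fitted to all libraries, the log2 fold change was 1.6, with an SE of 0.75 (edgeR adjusted p = 0.2), and 3.21 (SE 0.14, edgeR adjusted p = 2.58e-07) without replicate 1 with glutamine.

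MEG3, the maternally expressed long non-coding RNA of the same domain at chr14:100779410-100861031, was nearly absent. It had 9, 2 and 4 raw counts with glutamine and 3, 1 and 7 without, at most 0.111 CPM, and a difference was not detectable at this depth. DLK1 therefore outnumbered MEG3 in every library: DLK1 counts per MEG3 count, with 1 added to each, were 923, 436 and 236 with glutamine and 2710, 5600 and 1690 without. The log2 ratio of MEG3 to DLK1 averaged -8.83 ± 0.99 with and -11.52 ± 0.87 without glutamine (SD, n = 3 each), a difference of -2.69 (two-sided exact permutation p = 0.1, the smallest possible). The difference was -3.2 without replicate 1 with glutamine, and -2.41 over all 6 libraries with 10 added to each count. With so few MEG3 counts its size thus depends on the number added, and the MEG3 counts themselves overlapped between groups. The promoter of MEG3 at the first of its 3 RefSeq starts, chr14:100825858-100826157 on the plus strand, is shown because this RNA was almost missing while its neighbour was not.

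MEG3 promoter: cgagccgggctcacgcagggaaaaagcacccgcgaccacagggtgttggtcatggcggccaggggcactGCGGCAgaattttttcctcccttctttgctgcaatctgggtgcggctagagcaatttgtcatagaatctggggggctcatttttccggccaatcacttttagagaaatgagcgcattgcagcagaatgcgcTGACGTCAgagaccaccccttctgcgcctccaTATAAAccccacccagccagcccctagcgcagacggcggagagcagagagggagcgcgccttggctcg

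Capitals mark the letters TGACGTCA, the cAMP response element, TATAAA, the usual TATA box, and TGCCGC, the core of the site of the imprint-guarding protein ZFP57, each searched on both strands; they do not overlap here. Each occurs 1 time in this window, and 1.85%, 11.5% and 16.7% of 35116 promoters of the same length hold them. The window holds 19 CpG dinucleotides. These matches describe letters only. MEG3 also hosts a miRNA in an exon, printed with its seed in capitals for comparison with those of H19.

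hsa-miR-770-5p: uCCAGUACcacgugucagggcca

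The seeds of the miRNAs printed for H19 and MEG3 differ from each other. Other genes of the chromosome 14 domain, chosen here by position after their values were seen, were scarce. MEG9, a non-coding RNA, had 0.32, 0.0256 and 0.0127 CPM with glutamine and 0.256, 0.268 and 0.318 without. RTL1, a retrotransposon-derived gene of the paternal copy, had 0.259, 0.0384 and 0.0127 CPM with and 0.221, 0.0766 and 0.204 without. DIO3, which encodes an enzyme that inactivates thyroid hormone, had 0.394, 0.166 and 0.115 CPM with and 0.57, 0.37 and 0.42 without. In all of them replicate 1 with glutamine lay above replicates 2 and 3, as for DLK1. Their log2 fold changes were 1.19, 0.68 and 1.0 (edgeR adjusted p = 0.317, 0.591 and 0.17), and 3.77, 2.65 and 1.69 (edgeR adjusted p = 0.000217, 0.0119 and 0.00467) without that library.

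DLK1 is a relative of the ligands of Notch receptors, so the other ligands, the receptors and their target genes were read as a list of 12. In it 0 of 12 passed in edgeR with all libraries (5 at an unadjusted p below 0.05, and 2 called by DESeq2, NOTCH1 and NOTCH4), 10 had a positive and 2 a negative log2 fold change, and 5 lay wholly above and 0 wholly below (17.3% and 16.9% over all genes). Over all genes 29.7% had an unadjusted p below 0.05, and DESeq2 called 14% of all genes with an adjusted p. The median was 0.56, against 0.00121 over all genes. When replicate 1 with glutamine was left out, 8 were called higher and 1 lower (22.3% and 19% over all genes), with a median of 0.80. JAG1, HES1 and DLL3, described next, were then at 2.93, 1.73 and -1.0, and all passed. JAG1, a Notch ligand, had 650, 118 and 98.8 CPM with and 903, 854 and 721 without glutamine, the same layout as DLK1. HES1, a transcriptional target of Notch, had 50.2, 19.3 and 18.5 CPM with and 65.2, 64.1 and 58.8 without. DLL3, a divergent ligand that acts against Notch signalling in the same cell, had 5.85, 13.1 and 14.4 CPM with and 8.84, 6.32 and 5.40 without. The summed CPM of the nephron markers moved with these genes (LHX1 71.8, 4.51 and 4.66 with and 137, 114 and 89.5 without), and its part in the result was not tested.

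PEG10 was lower without glutamine in every library. PEG10 is a retrotransposon-derived gene of the paternal copy, needed for the placenta, at chr7:94656325-94669695 on the plus strand, with its start 0.247 kb from that of its imprinted neighbour SGCE. It had 2140, 2640 and 2790 CPM with glutamine and 1650, 1680 and 2050 CPM without. The lowest library with glutamine was replicate 1, just above the highest library without, so the groups did not overlap. The means of 2520 ± 336 and 1790 ± 223 CPM (SD, n = 3 each) were 1.41-fold apart. The fitted log2 fold change came to -0.49, with an SE of 0.13 (edgeR adjusted p = 0.081), and to -0.59 (SE 0.10, edgeR adjusted p = 0.00103) without replicate 1 with glutamine. DESeq2 called PEG10 on all 6 libraries (DESeq2 adjusted p = 0.0181). SGCE, which encodes a sarcoglycan and shares 3.27% of the PEG10 exon bases on the other strand, had 39.8, 50.2 and 51.8 CPM with and 43.1, 43.1 and 41.3 without (log2 fold change -0.15, edgeR adjusted p = 0.369). SGCE too was called lower without replicate 1 with glutamine (-0.26, edgeR adjusted p = 0.0134).

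With all 6 libraries PEG3 had the largest difference relative to its spread; without replicate 1 with glutamine DLK1, GRB10 and IGF2 exceeded it. PEG3 encodes a zinc finger protein of the paternal copy, at chr19:56810077-56840728 on the minus strand. Its counts were small, 50, 52 and 49 with glutamine and 30, 27 and 34 without, or 0.616, 0.666 and 0.624 against 0.349, 0.345 and 0.433 CPM. All 3 libraries with glutamine, replicate 1 included, lay above all 3 without. At such counts an SD over 3 libraries can fall below counting noise, so the difference relative to its spread is uncertain. The means of 0.635 ± 0.0268 and 0.375 ± 0.0498 CPM (SD, n = 3 each) were 1.69-fold apart. With all 6 libraries the log2 fold change was -0.76, with an SE of 0.20 (edgeR adjusted p = 0.081), and -0.78 (SE 0.24, edgeR adjusted p = 0.026) without replicate 1 with glutamine. PEG3 shares 12.9% of its exon bases with ZIM2 on the same strand, which held at most 2 counts.

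MEST did not separate the groups. MEST encodes a protein related to hydrolases, made from the paternal copy in mesoderm, at chr7:130486171-130506465 on the plus strand. It had 594, 819 and 815 CPM with glutamine and 597, 729 and 770 CPM without, means of 742 ± 129 and 699 ± 90.3 (SD, n = 3 each). Replicate 1 with glutamine was the lowest library of all, next to replicate 1 without. Fitted to all libraries, the log2 fold change was -0.09, with an SE of 0.15 (edgeR adjusted p = 0.72), and -0.22 (SE 0.10, edgeR adjusted p = 0.103) without replicate 1 with glutamine. COPG2 covers part of the 27.4% of MEST exon bases shared with genes on the other strand and held 8735 to 10722 counts, so without strand in the counting, whose setting is not given in the sources used here, reads of MEST and COPG2 cannot be told apart there. A miRNA inside MEST, outside its exons, is shown as the last of the hosted miRNAs.

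hsa-miR-335-5p: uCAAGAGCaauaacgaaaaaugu
hsa-miR-335-3p: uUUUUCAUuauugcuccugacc

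GRB10 was higher without glutamine in every library. GRB10 encodes an adaptor protein that binds the insulin and insulin-like growth factor receptors and restrains growth, at chr7:50590063-50793462 on the minus strand. It had 95.3, 65.4 and 69.0 CPM with glutamine and 109, 106 and 99.9 CPM without. Replicate 1 with glutamine lay just below the libraries without and well above its own group's other 2. The means of 76.6 ± 16.3 and 105 ± 4.67 CPM (SD, n = 3 each) were 1.37-fold apart. The fitted log2 fold change came to 0.46, with an SE of 0.14 (edgeR adjusted p = 0.102), and to 0.65 (SE 0.07, edgeR adjusted p = 9.52e-05) without replicate 1 with glutamine. DESeq2 called GRB10 on all 6 libraries (DESeq2 adjusted p = 0.0358). Scaled by library size only, in place of TMM, the GRB10 groups overlapped, since replicate 1 with glutamine then lay just above the lowest library without.

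The receptors, binding proteins, regulators and signalling partners through which IGF2 and GRB10 act were read as a list of 34 genes, 32 of them tested, with INS at 0 in every library. With all libraries 0 passed in edgeR, 16 had an unadjusted p below 0.05 and DESeq2 called 9. Over all genes 29.7% had such an unadjusted p, and DESeq2 called 14% of those with an adjusted p. Log2 fold changes were positive for 19 and negative for 13 (median 0.13). Of the tested genes 9 lay wholly above and 7 wholly below, against 17.3% and 16.9% of all genes. Leaving out replicate 1 with glutamine, 14 were called higher and 9 lower, against 22.3% and 19% of all genes. IGF1R and IGF2R, which clears IGF2 from the cell surface, differed little. IGF1R had 251 to 282 CPM with and 255 to 288 without, and IGF2R 303 to 328 with and 279 to 317 without. The receptor gene INSR had 36, 31.6 and 31.4 CPM with and 30.7, 26.7 and 28.7 without, groups that did not overlap. Its log2 fold change was -0.20 (edgeR adjusted p = 0.193), and -0.13 (edgeR adjusted p = 0.225) without replicate 1 with glutamine. GRB14, a relative of GRB10, had 6.11, 0.986 and 0.98 CPM with glutamine and 9.64, 11 and 8.51 without (log2 fold change 1.84, edgeR adjusted p = 0.12). PAPPA2, a protease that frees insulin-like growth factors from binding proteins, had 7.06, 1.63 and 1.95 with and 9.58, 11.7 and 16.6 without (1.83, edgeR adjusted p = 0.091). IGFBP7, an outlying member of the binding protein family, had 3.40, 0.384 and 0.42 with and 7.25, 8.36 and 6.49 without (2.38, edgeR adjusted p = 0.0885).

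At the other end of that list, PIK3R1, a regulatory subunit of PI3 kinase, had 92.2, 224 and 223 CPM with glutamine and 80.4, 75.4 and 87.0 without (log2 fold change -1.15, edgeR adjusted p = 0.0827). LIN28A, an RNA-binding protein of early embryonic cells, had 156, 310 and 322 with and 152, 132 and 125 without (-0.95, edgeR adjusted p = 0.0829). PLAG1, a transcription factor that can activate IGF2, had 93.3, 124 and 110 with and 83.4, 76.0 and 84.7 without (-0.42, edgeR adjusted p = 0.081). In these 6 genes replicate 1 with glutamine lay between its group's other libraries and those without. Without that library the log2 fold changes were 3.31, 2.82 and 4.19 for GRB14, PAPPA2 and IGFBP7 and -1.46, -1.21 and -0.52 for PIK3R1, LIN28A and PLAG1, and all 6 passed.

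CDKN1C did not separate the groups either. CDKN1C encodes p57, an inhibitor of cyclin-dependent kinases made from the maternal copy that slows the cell cycle, at chr11:2883213-2885773 on the minus strand, 884 kb from the start of H19. It had 139, 164 and 144 CPM with glutamine and 209, 156 and 148 CPM without, with means of 149 ± 13.2 and 171 ± 33.2 (SD, n = 3 each). Replicate 1 without glutamine was the single high library. With all 6 libraries the log2 fold change was 0.19, with an SE of 0.14 (edgeR adjusted p = 0.377), and 0.15 (SE 0.14, edgeR adjusted p = 0.406) without replicate 1 with glutamine.

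The other genes named as cyclin-dependent kinase inhibitors, a list of 7 that includes CDKN3, were all tested. They had 6 positive and 1 negative log2 fold change, a median of 0.86 and 6 genes wholly above their level with glutamine (17.3% over all genes). Among the genes wholly above, CDKN2C and CDKN2A had few counts, 5 to 19 and 3 to 42 in a library. EdgeR called 0 of the 7, and 5 had an unadjusted p below 0.05, as did 29.7% of all genes. DESeq2 called 5, all higher (14% of all genes in either direction). With replicate 1 with glutamine left out, 5 were called higher and 1 lower (22.3% and 19% over all genes). CDKN1A, which encodes p21, had 11.3, 9.46 and 10.9 CPM with glutamine and 19, 24.0 and 18.6 without (log2 fold change 0.96, edgeR adjusted p = 0.068), and replicate 1 lay with its own group. CDKN2D had 4.13, 2.93 and 2.77 with and 5.29, 6.01 and 5.05 without (0.73, edgeR adjusted p = 0.0761). CDKN2B had 0.53, 0.435 and 0.356 with and 0.756, 1.14 and 1.20 without (1.21, edgeR adjusted p = 0.0706). CDKN1B, which encodes p27, had 51.8, 72.0 and 71.5 with and 57.3, 53.7 and 50.3 without (-0.28, edgeR adjusted p = 0.217). In the fit without replicate 1 with glutamine CDKN1A, CDKN2D, CDKN2B and CDKN1B were at 1.02, 0.94, 1.37 and -0.41 (edgeR adjusted p = 0.000213, 0.000379, 0.00436 and 0.00187).

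SNRPN encodes a core protein of spliceosomal particles, from the paternal copy of the domain lost in Prader-Willi syndrome, at chr15:24823637-24978723 on the plus strand. Its level was 30.1, 27.9 and 29.3 CPM with glutamine and 31.4, 39.7 and 36.6 without, and the groups did not overlap although replicate 1 without glutamine was close to the highest library with it. The means of 29.1 ± 1.13 and 35.9 ± 4.21 CPM (SD, n = 3 each) were 1.23-fold apart. Fitted to all libraries, the log2 fold change was 0.30, with an SE of 0.10 (edgeR adjusted p = 0.115), and 0.33 (SE 0.10, edgeR adjusted p = 0.0268) without replicate 1 with glutamine. SNRPN shares 33.6% of its exon bases with same-strand genes, among them SNHG14 with 20346 to 27895 counts and SNURF with 31 to 73, so how reads were split between them is uncertain. SNHG14, the long host transcript of the domain, had 286, 276 and 259 CPM with and 284, 332 and 355 without (log2 fold change 0.24, edgeR adjusted p = 0.149, and 0.28 with adjusted p = 0.0389 in the fit without replicate 1 with glutamine). The promoter of SNRPN at chr15:24954737-24955036, plus strand, is shown because the control region of this domain is known to lie at an SNRPN start.

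SNRPN promoter: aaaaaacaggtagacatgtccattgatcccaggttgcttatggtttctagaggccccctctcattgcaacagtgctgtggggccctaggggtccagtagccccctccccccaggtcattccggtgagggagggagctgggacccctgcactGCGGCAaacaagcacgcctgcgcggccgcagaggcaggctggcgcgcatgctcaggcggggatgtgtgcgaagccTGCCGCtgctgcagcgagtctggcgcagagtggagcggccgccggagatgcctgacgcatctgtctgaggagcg

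The capitals again mark TGCCGC on either strand, found 2 times here, and the window holds 18 CpG dinucleotides. RefSeq promoters were matched for 5 of the 10 genes, H19, MEG3, MEST, GRB10 and SNRPN.

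The spread between replicates was then set against the group difference for each gene on the log2 CPM scale (prior count 2), where the difference of group means weights libraries differently from the fitted fold change and comes to 2.25 for DLK1. The pooled SD within groups was 1.17 for DLK1, 0.33 for IGF2, 0.23 for MEST, 0.21 for CDKN1C and GRB10, 0.19 for PEG10, 0.13 for PEG3 and SNRPN, and 0.09 for H19. The difference came to 5.61 pooled SDs for PEG3, 2.62 for PEG10, 2.31 for SNRPN and 2.23 for GRB10. These were the 4 genes above 2 SDs, as were 29.5% of all genes. The PEG3 ratio rests on 27 to 52 counts in a library and is uncertain. The difference came to 1.92 pooled SDs for DLK1, 1.44 for IGF2 and 1.35 for H19, which brings the genes above 1 SD to 7 of 9, against 62.9% of all genes. For CDKN1C (0.863) and MEST (0.347) the group difference was smaller than the spread. The median ratio was 1.92 over the 9 genes and 1.37 over all genes, and the median pooled SD 0.21 and 0.198.

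**Figure D2:**
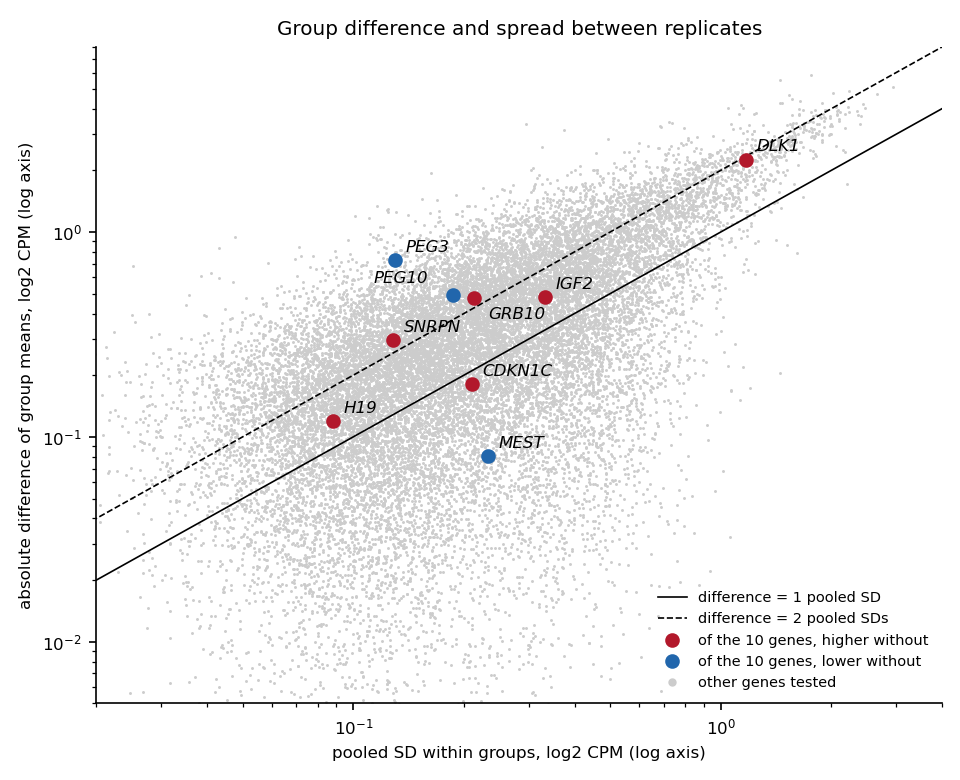
Absolute difference of group means against the pooled SD within groups, both in log2 CPM on log axes, for the 9 genes tested (red: higher without glutamine, blue: lower) and the other genes tested (grey; genes beyond the axis limits are not drawn). PEG3, PEG10, SNRPN and GRB10 lie above the dashed line of 2 pooled SDs, DLK1 just below it at 1.92, and CDKN1C and MEST lie below the solid line of 1 pooled SD.

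The spread was not shared evenly between the groups. For DLK1 the SD of log2 CPM was 1.64 with glutamine and 0.23 without, for IGF2 0.45 and 0.13, and for GRB10 0.29 and 0.06. H19 (0.10 and 0.07), PEG10 (0.20 and 0.17) and MEST (0.27 and 0.19) also had the larger SD with glutamine, which makes 6 of 9 genes, or 66.7%, against 66.1% of all genes. PEG3 (0.06 and 0.17), SNRPN (0.06 and 0.17) and CDKN1C (0.13 and 0.27) had the larger SD without glutamine. Without replicate 1 with glutamine, the difference came to 16.4 pooled SDs for DLK1, 10.5 for GRB10 and 5.75 for IGF2, and was 5.1 for PEG3, 4.14 for PEG10, 2.23 for SNRPN, 2.05 for H19, 1.49 for MEST and 0.573 for CDKN1C. The median over all genes was then 2.26.

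The position of replicate 1 with glutamine was measured for each gene on a scale with 0 at the mean of replicates 2 and 3 with glutamine and 1 at the mean without. It lay at 1.04 for IGF2, 0.89 for DLK1, 0.82 for H19, 0.78 for GRB10 and 0.56 for PEG10, but at 0.23 for SNRPN and 0.08 for PEG3. The scale spans 3.20 log2 units for DLK1, 0.74 for IGF2, 0.75 downward for PEG3 and only 0.16 for H19, so the H19 position carries little weight. For CDKN1C (-1.07) and MEST (1.97) the scale spans only 0.13 upward and 0.23 downward. Over the 3059 genes with a span of at least 1, the median position was 0.796. Leaving aside H19, CDKN1C and MEST, whose scales are narrow, replicate 1 with glutamine lay nearer its own group only for PEG3 and SNRPN. The libraries with glutamine also lay close together for CDKN1C and H19, with SDs of log2 CPM of 0.13 and 0.10.

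**Figure D3:**
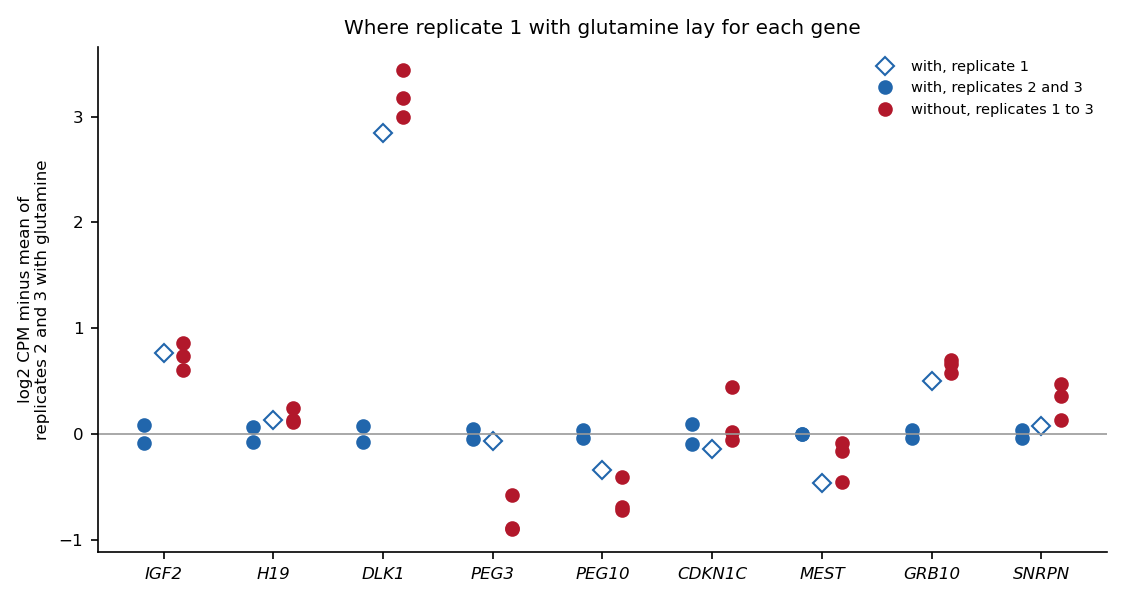
Log2 CPM of each library minus the mean of replicates 2 and 3 with glutamine (linear axis), for the 9 genes tested, with replicate 1 with glutamine as an open diamond and the 3 libraries without glutamine in red. The diamond lies by the red points for IGF2, DLK1 and GRB10 and by the blue points for PEG3 and SNRPN.

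Over the 6 libraries, as a description of points that share group and library, log2 CPM of IGF2 followed that of DLK1 (Pearson r = 0.98) and H19 (r = 0.90), PEG3 followed PEG10 (r = 0.92), and PEG10 ran against DLK1 (r = -0.87) and IGF2 (r = -0.79). The genes outside the lists with the pattern most like each of IGF2, H19 and DLK1, among 14819 genes with a mean of at least 50 counts, were sought by the same measure over 6 libraries. For IGF2 they were IGSF5 (r = 0.9977), EBF1 (0.9957) and MIR100HG (0.9954), the last with 23.8, 7.36 and 6.34 CPM with glutamine and 20.6, 24.4 and 28.9 without. For H19 they were FILIP1 (0.9943), LRRC8C (0.9699) and PRKAA1 (0.9682). For DLK1 they were GPR50 (0.9998), GPR137 (0.9995) and TMEM26 (0.999), the last with 13.7, 1.74 and 1.82 CPM with and 15.3, 16.8 and 20.9 without. MEG3 had too few counts for such a search.

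Other imprinted genes were read in lists by parental copy. Of 33 listed as paternally expressed, 31 were matched (HYMAI and PEG13 were not analysed here) and 24 were tested: 0 passed in edgeR (7 at an unadjusted p below 0.05, and DESeq2 called DIRAS3 and L3MBTL1), 11 had a positive and 13 a negative log2 fold change, the median was -0.04, and 4 lay wholly above and 6 wholly below. Of 21 listed as maternally expressed 19 were tested: 0 passed in edgeR (6 at an unadjusted p below 0.05, and DESeq2 called ASCL2, PHLDA2 and TFPI2), 13 were positive and 6 negative, the median was 0.17, and 6 lay wholly above and 0 wholly below. Over all genes 17.3% lay wholly above and 16.9% wholly below. An unadjusted p below 0.05 was found for 29.7% of all genes, and DESeq2 called 14% of those with an adjusted p. Without replicate 1 with glutamine 5 paternally expressed genes were called higher and 7 lower, and 6 maternally expressed genes higher and 1 lower, against 22.3% higher and 19% lower over all genes. The difference between the lists was not tested.

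Among the paternally expressed genes, DIRAS3, a small GTPase that restrains growth, had 1.16, 0.948 and 0.636 CPM with glutamine and 1.56, 1.75 and 2.19 without (log2 fold change 1.0, edgeR adjusted p = 0.0782). PLAGL1, a zinc finger factor of growth control, had 149, 111 and 97.0 with and 123, 142 and 192 without, overlapping groups (0.36, edgeR adjusted p = 0.28). L3MBTL1, a chromatin protein, had 34.3, 37.0 and 28.8 with and 26.1, 23.4 and 22.1 without (-0.48, edgeR adjusted p = 0.074). Among the maternally expressed genes, PHLDA2, which limits placental growth and neighbours CDKN1C, had 0.357, 0.602 and 0.433 with and 1.1, 1.48 and 0.777 without (1.27, edgeR adjusted p = 0.0762). TFPI2, a protease inhibitor, had 16.0, 9.40 and 10.5 with and 17.9, 19.1 and 24.1 without (0.77, edgeR adjusted p = 0.0862). UBE3A, a ubiquitin ligase of the SNRPN domain, had 161, 211 and 216 with and 160, 158 and 163 without, and the lowest library with glutamine was again replicate 1 (-0.29, edgeR adjusted p = 0.155). In the fit without that library DIRAS3, PLAGL1 and L3MBTL1 were at 1.21, 0.55 and -0.46 (edgeR adjusted p = 0.003, 0.0196 and 0.0103), and PHLDA2, TFPI2 and UBE3A at 1.12, 1.04 and -0.41 (edgeR adjusted p = 0.0183, 0.000233 and 0.00064).

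**Figure D4:**
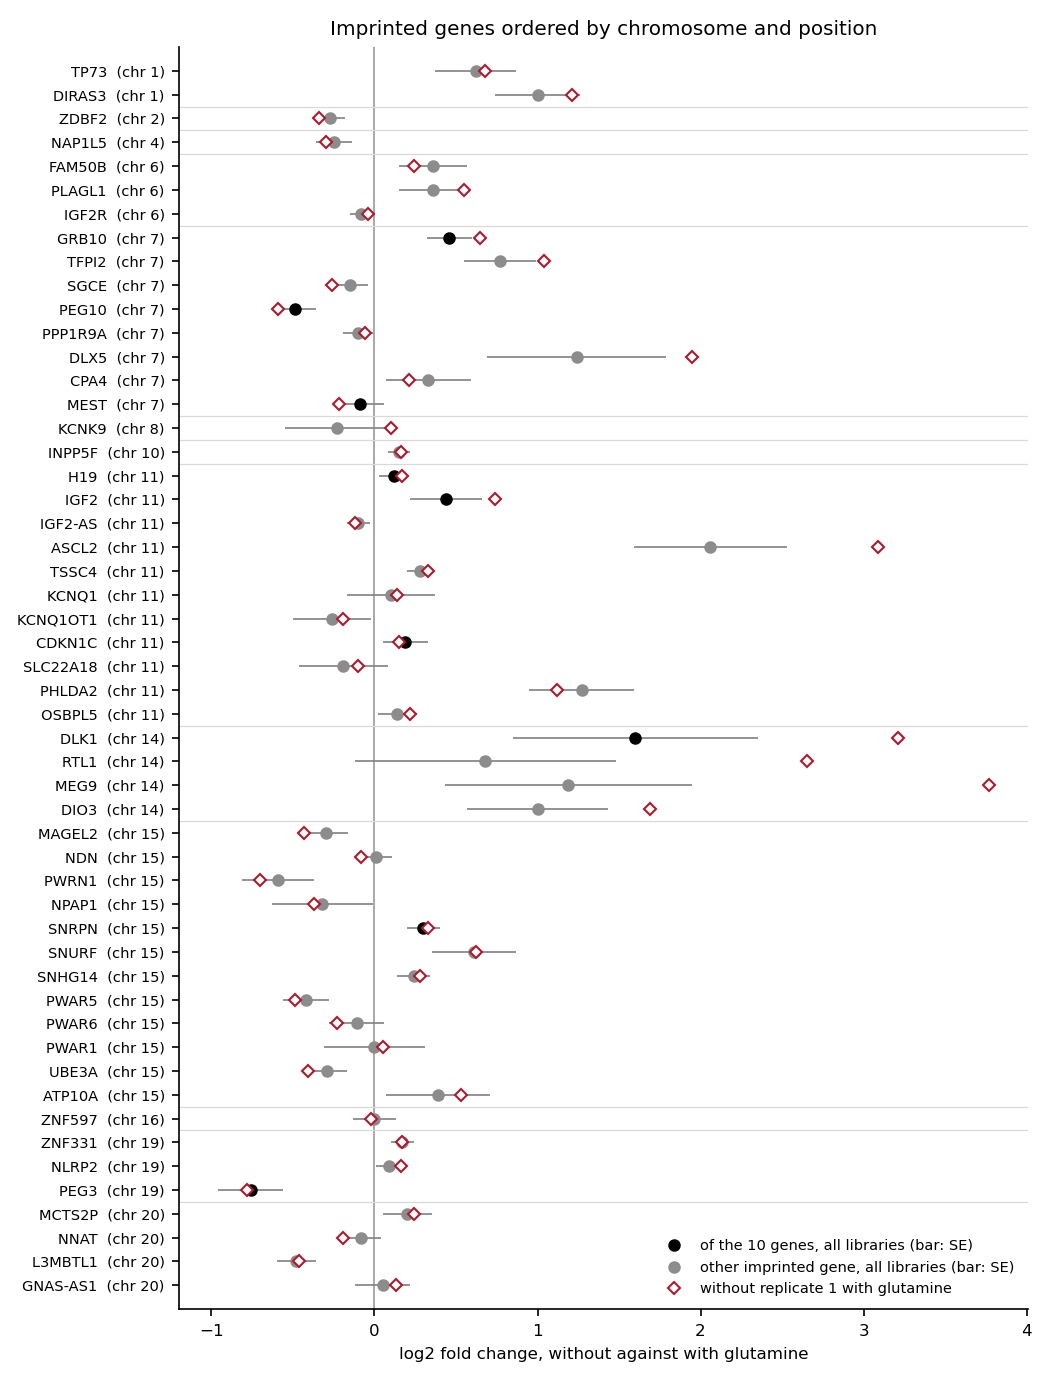
Log2 fold change without against with glutamine for all imprinted genes tested, in order of chromosome and position, with the SE as a bar from the fit of 6 libraries (black: 9 of the 10 genes, grey: other imprinted genes) and the value without replicate 1 with glutamine as an open diamond. Genes of chromosomes 7, 11 and 15 lie on both sides of 0, and the 4 genes of chromosome 14 lie to the right, where the diamonds of DLK1, RTL1 and MEG9 lie beyond 2.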

How the data were processed

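The deposited table of raw counts per Ensembl gene was analysed; the authors' second table holds counts divided by size factors (a signal, per the file headers and values) and served 1 alternative. GRCh38, STAR 2.5.2b, cutadapt, Trim Galore, FastQC and DESeq2 are named in the submitters' processing notes; counting program, annotation release and strand setting are not given in the sources used here. Headings of the columns read day 0 or day 9, although each sample is labelled day 9. The sample descriptions tie the day 0 headings to libraries with glutamine, and the directions reported rest on that.

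Symbols, exon lengths and positions came from GENCODE 29 (GRCh38), which matched 56531 of 60107 identifiers, and promoters and miRNAs from RefSeq (GRCh38.p14). Counts were tested with edgeR 4.0.16 in R 4.3.3 (quasi-likelihood, legacy = FALSE, filterByExpr, TMM, Benjamini-Hochberg over 22613 genes, threshold 0.05), on 3 against 3 libraries, with the test also run on simulated data. CPM used the TMM-scaled totals. DESeq2 1.42.0 and limma 3.58.1 gave alternatives.

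The 10 genes and all lists were chosen with earlier results of these data known. Besides the 10 genes, the rule names from each list up to 3 genes with the highest and 3 with the lowest log2 fold change among those with a mean of at least 50 counts; other list genes named were chosen after their values were seen.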

Additional observations from a re-analysis of the deposited data

How the results depend on the processing

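Over all genes, edgeR called 1 gene; it called 0 with upper quartile scaling, with library size only, with legacy = TRUE and with the replicate block, limma-voom called 0, edgeR with no filter and limma-trend on the authors' normalized counts 2 each, and DESeq2 3041. At an unadjusted p below 0.05 these fits gave 6280 (replicate block) to 8287 genes (no filter). Leaving out 1 library at a time gave 0 to 9573 genes, the highest without replicate 1 with glutamine and the next, 17, without replicate 1 without glutamine. Of the 10 genes, 0 were called except 2 by DESeq2 and, leaving out 1 library at a time, 0 to 6, with 6 only without replicate 1 with glutamine. Of the 10 genes, those whose groups did not overlap numbered 5, 4 with library size only (GRB10 lost), and 5 to 8 leaving out 1 library at a time. With all 6 libraries 17.3% of all genes lay wholly above and 16.9% wholly below. Shares over all genes were not computed for the other settings, and 2 against 3 libraries separate more easily. The cause of the differences between settings was not tested. Of 144 recomputed log2 fold changes of the 9 genes tested, 135 were alike in sign and call, 8 passed the threshold only then and 1 changed sign (MEST, -0.22 to 0.02 leaving out 1 library at a time, above 0 without replicate 1 without glutamine). The log2 fold change of DLK1 ran from 1.17 to 3.21, and that of IGF2 from 0.27 to 0.74.

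The same replicate numbers occur in both groups, but same-numbered libraries did not deviate together (r = -0.02, 0 and 0.03). With replicate 1 with glutamine apart from its group and 3 libraries per group, this cannot exclude that the numbers pair them. With the replicate block the H19 to IGF2 difference was -0.36 (exact sign-flip p = 0.5) and the MEG3 to DLK1 difference -2.69 (exact sign-flip p = 0.25), and DLK1 had a log2 fold change of 2.32 (edgeR adjusted p = 0.155). Leaving out 1 library at a time, these differences ran from -0.57 to -0.25 and from -3.2 to -2.21. Depth limits MEG3 and PEG3 most, with at most 9 and 52 counts in a library.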

Other observations

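Factors that keep imprints and DNA methylation were read as a list of 26 genes, 22 of them tested, with DNMT3L at 0 in every library. With all libraries 0 passed in edgeR's quasi-likelihood test, 9 had a positive and 13 a negative log2 fold change, the median was -0.03, and 7 had an unadjusted p below 0.05. DESeq2 called TET1, UHRF1 and ZNF445. Over all genes 29.7% had an unadjusted p below 0.05, and DESeq2 called 14% of those with an adjusted p. Without replicate 1 with glutamine 3 were called higher and 8 lower, against 22.3% and 19% of all genes. TET1, an enzyme that oxidises methylated cytosine, had 114, 231 and 211 CPM with glutamine and 99.2, 79.2 and 80.4 without (log2 fold change -1.10, edgeR adjusted p = 0.0717), and -1.35 (edgeR adjusted p = 7.1e-06) without replicate 1 with glutamine. UHRF1, which guides the maintenance methyltransferase to replicating DNA, had 60.8, 48.8 and 54.4 with and 91.1, 71.4 and 68.4 without (0.49, edgeR adjusted p = 0.0827). ZNF445, a zinc finger protein that guards imprints in human cells, had 155, 167 and 159 with and 136, 118 and 131 without (-0.32, edgeR adjusted p = 0.0746), and its 3 libraries with glutamine stayed together. UHRF1 was at 0.58 and ZNF445 at -0.34 without replicate 1 with glutamine (edgeR adjusted p = 0.00408 and 0.00664). ZFP57, another guard of imprints, had at most 0.115 CPM.

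Binding proteins of insulin-like growth factors, named after their values were seen, differed in how replicate 1 with glutamine lay. IGFBP3 had 145, 17.2 and 15.7 CPM with glutamine and 142, 170 and 233 without (log2 fold change 1.61, edgeR adjusted p = 0.236), and 3.47 (edgeR adjusted p = 1.38e-06) without replicate 1 with glutamine. IGFBP2 had 175, 173 and 189 with and 303, 307 and 255 without (0.69, edgeR adjusted p = 0.068). IGFBP5 had 326, 340 and 355 with and 419, 685 and 910 without (0.98, edgeR adjusted p = 0.0778). In the fit without replicate 1 with glutamine these were 0.67 and 0.95 (edgeR adjusted p = 0.00036 and 0.0121). For IGFBP2 and IGFBP5 replicate 1 with glutamine stayed with its group, whereas for IGFBP3 it lay among the libraries without glutamine.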
